A study of Mus musculus with 10 samples.

Results

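The genes described here are 10 markers of gastric-type epithelium, measured by polyA RNA sequencing in 10 primary pancreatic tumours of KPF mice. They are the secreted mucins Muc5ac and Muc6, the trefoil factors Tff1 and Tff2, the gastrokines Gkn1, Gkn2 and Gkn3, the annexin Anxa10, the aspartic protease cathepsin E (Ctse) and the protein disulphide isomerase Agr2. Each was found by its symbol in a table of 55487 genes, and all 10 were among the 16565 genes with enough counts to be compared. The set was selected on these same measured values: it was put together with the comparison of the 2 groups in view, in which Muc5ac and Tff1 were lower in the tumours labelled Grem1-deleted. Differences between the groups in these 10 genes are therefore given as descriptions, without a test.

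The series holds 5 tumours labelled Grem1∆/∆ and 5 labelled Grem1wt/wt, all from KPF mice on a C57BL/6J background aged 6 to 12 weeks. From 5 weeks of age, the labelled-deleted mice received tamoxifen (100 mg/kg) once daily on 5 days, and the wild-type mice received peanut oil instead. Genotype and tamoxifen cannot be told apart in these samples. The sources used here do not give the KPF alleles that both groups carry, the promoter behind the recombinase or the deleted part of Grem1. Nothing states whether each tumour came from a separate mouse, beyond the term biological replicate. The labels call the material bulk tumour tissue in one field and sorted cells in another.

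Mucins are large glycoproteins that form the gel over a mucosa, and trefoil factors are small, protease-resistant peptides released with them. In the stomach, surface (foveolar) mucous cells make Muc5ac, Tff1, Gkn1 and Gkn2, while mucous neck and pyloric gland cells make Muc6 and Tff2, and in the mouse also Gkn3. Normal pancreatic exocrine cells make little of these products, whereas early ductal lesions of the pancreas and well-differentiated tumours are known to take on such gastric features.

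Libraries held between 10159891 and 18571519 estimated counts, and no count of the 10 genes was below 23 in any library. Levels are in CPM, counts per 1000000 counts of the library, with library sizes adjusted by the TMM method of edgeR. Grem1 itself stood at 6.83 to 110.1 CPM in the tumours labelled deleted and at 3.97 to 43.1 CPM in the wild-type tumours, so these counts do not show the deletion, and the groups carry the names of their labels. Labelled-deleted tumour 1 lay far from the other 9 libraries on the first principal component and had the least epithelial RNA, with 172 CPM of the epithelial adhesion gene Epcam, against 382 to 559 CPM in the others of its group and 532 to 605 CPM in the wild-type tumours. Labelled-deleted tumour 2 held intestinal transcripts: 10 enterocyte genes summed to 4517 CPM there, against 85.0 to 201 CPM in the other labelled-deleted tumours and 167 to 282 CPM in the wild-type tumours. With edgeR's quasi-likelihood test over the whole table, 0 of 16565 genes had an adjusted p under 0.05 and 983 had an unadjusted p under 0.05. The share called was 0% in each direction.

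Of the 10 genes, 7 lie in 3 gene clusters (GENCODE M21, GRCm38, the assembly also called mm10). On chromosome 7, Muc6 (141633456 to 141655319, minus strand) is separated from Muc5ac (141788972 to 141819231, plus strand) by the goblet-cell mucin gene Muc2, and Muc5b follows 19838 bases beyond Muc5ac. On chromosome 17, Tff2 (31141049 to 31144282) and Tff1 (31161395 to 31165277) are 17112 bases apart on the minus strand, with Tff3 next to Tff2. On chromosome 6, Gkn1 (87345650 to 87350942, minus strand), Gkn2 (87373357 to 87379497, plus strand) and Gkn3 (87383256 to 87388935, minus strand) stand side by side, and Gkn2 and Gkn3 are 3758 bases apart. Anxa10 is on chromosome 8, Ctse on chromosome 1 and Agr2 on chromosome 12. Exons of 9 of the 10 genes overlap those of no other annotated gene. Tff1 shares 153 exonic bases with Gm15318 on the other strand. The sources used here do not say if reads were counted by strand.

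RefSeq promoter sequences (GRCm38.p6, 250 bases before to 50 after each start) were matched for 6 of the 10 genes, and not for Muc5ac, Tff1, Tff2 and Ctse. The 3 neighbouring gastrokine promoters are shown because Gkn1 and Gkn2 varied together from tumour to tumour, and Muc6 because it followed them least when labelled-deleted tumour 1 was left out. Capitals mark GATAA, the core letters recognised by GATA factors, on either strand (TTATC where it lies on the other strand).
Gkn1, chr6:87350866-87351165, minus strand: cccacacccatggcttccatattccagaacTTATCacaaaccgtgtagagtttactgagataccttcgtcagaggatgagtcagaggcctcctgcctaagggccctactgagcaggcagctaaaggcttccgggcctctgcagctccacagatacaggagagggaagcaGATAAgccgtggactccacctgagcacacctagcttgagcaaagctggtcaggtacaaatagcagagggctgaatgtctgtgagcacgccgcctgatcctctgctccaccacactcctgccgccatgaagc
Gkn2, chr6:87373115-87373414, plus strand: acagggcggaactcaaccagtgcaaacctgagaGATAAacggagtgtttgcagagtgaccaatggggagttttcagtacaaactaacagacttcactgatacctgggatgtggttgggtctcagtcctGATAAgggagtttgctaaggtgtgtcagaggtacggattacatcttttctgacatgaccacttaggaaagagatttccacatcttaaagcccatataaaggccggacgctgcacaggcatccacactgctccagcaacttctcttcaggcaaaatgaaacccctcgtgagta
Gkn3, chr6:87388886-87389185, minus strand: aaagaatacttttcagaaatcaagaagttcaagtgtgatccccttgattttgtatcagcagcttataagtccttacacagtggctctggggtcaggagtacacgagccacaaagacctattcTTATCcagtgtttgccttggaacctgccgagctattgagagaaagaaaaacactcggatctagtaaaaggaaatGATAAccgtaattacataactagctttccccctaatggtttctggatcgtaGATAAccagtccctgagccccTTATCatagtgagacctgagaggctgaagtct
Muc6, chr7:141655344-141655643, minus strand: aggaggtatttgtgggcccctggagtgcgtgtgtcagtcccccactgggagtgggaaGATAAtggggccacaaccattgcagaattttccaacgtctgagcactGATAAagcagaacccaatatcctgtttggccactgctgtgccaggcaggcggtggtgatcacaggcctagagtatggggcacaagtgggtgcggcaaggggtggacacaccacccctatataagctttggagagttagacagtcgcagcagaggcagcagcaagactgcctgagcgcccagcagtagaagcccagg
GATAA was present in 4 of the 6 promoters, which are the 4 shown, and in 25.4% of 32851 mouse promoters of the same length. Gkn3 held 4 copies, and 0.938% of all promoters held 3 or more. The TATA-box letters TATAAA, which overlap no GATAA here, occurred in Gkn2 and Anxa10, with their first base 29 and 32 bases before the start, and in 13.6% of all promoters. The forkhead letters TGTTTAC were in 0 of the 6 and in 3.65% of all. Muc6 carried 2 copies of GATAA, as many as Gkn1 and Gkn2.

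Among the mucins, Muc5ac was low in every tumour labelled deleted, whereas the Muc6 levels of the groups overlapped. Muc5ac, the gel-forming mucin of gastric surface cells, stood at 2.05, 46.2, 36.28, 43.4 and 71.3 CPM in labelled-deleted tumours 1 to 5. In wild-type tumours 1 to 5 it stood at 218, 77.6, 537, 249.9 and 198 CPM. The groups did not overlap, and wild-type tumour 2 came closest to the tumours labelled deleted. The means were 39.8 ± 24.9 CPM in tumours labelled deleted and 256 ± 170 CPM in wild-type tumours (SD, n = 5 each), a log2 fold change of -2.68 (SE 0.74). It was -2.38 when labelled-deleted tumour 1 was left out, so the low level did not rest on that tumour.

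Muc6, the mucin of neck and pyloric gland cells, stood at 18.2, 118, 255, 174 and 246 CPM in the tumours labelled deleted. Wild-type levels were 138, 189, 289, 93.7 and 129 CPM. Apart from labelled-deleted tumour 1, all tumours of both groups lay in one range. Muc6 averaged 162 ± 98.0 CPM in tumours labelled deleted and 168 ± 75.8 CPM in wild-type tumours, a log2 fold change of -0.05 (SE 0.56), which turned to 0.24 without labelled-deleted tumour 1.

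The ratio of the 2 mucins did not overlap between the groups either, but it reuses the Muc5ac values and is no separate result. The ratio of Muc5ac to Muc6 counts was 0.113, 0.392, 0.142, 0.249 and 0.290 in the tumours labelled deleted. In the wild-type tumours it was 1.59, 0.410, 1.86, 2.67 and 1.54. Muc5ac exceeded Muc6 in 0 of 5 tumours labelled deleted and in 4 of 5 wild-type tumours, and the highest ratio among tumours labelled deleted lay just below the lowest wild-type ratio. This ratio was chosen after the values were seen. Like ratios of the other families overlapped between the groups. That of Tff1 to Tff2 was 0.322 to 1.996 in tumours labelled deleted and 0.751 to 2.15 in wild-type tumours. The ratio of Gkn1 to Gkn3 was 0.157 to 1.37 in tumours labelled deleted, with a median of 0.937. In wild-type tumours it was 0.431 to 1.89, with a median of 0.849.

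Of their cluster neighbours, Muc2, the mucin of intestinal goblet cells, stood at 133 CPM in labelled-deleted tumour 2 and at no more than 2.49 CPM elsewhere. Muc5b, an airway and salivary mucin, lay between 0.41 and 3.20 CPM in the tumours labelled deleted and between 1.49 and 10.7 CPM in the wild-type tumours. Its log2 fold change was -1.39 (SE 0.69), below 0 like that of Muc5ac, and 3 of 5 tumours labelled deleted lay below every wild-type tumour.

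Of the trefoil factors, Tff1 did not overlap between the groups, like Muc5ac. Tff2 overlapped, but unlike for Muc6, 3 of 5 tumours labelled deleted lay below every wild-type tumour. Tff1, the trefoil peptide of surface mucous cells, stood at 10.5, 36.5, 52.8, 44.4 and 93.9 CPM in the tumours labelled deleted. Its wild-type levels were 311, 99.3, 391, 178 and 109.8 CPM. No tumour labelled deleted reached the lowest wild-type tumour, although labelled-deleted tumour 5, at 93.9 CPM, came close to wild-type tumour 2. Tff1 averaged 47.6 ± 30.3 CPM in tumours labelled deleted and 218 ± 128 CPM in wild-type tumours, a log2 fold change of -2.19 (SE 0.56). The part of reads from the overlapping antisense gene in this value was not tested.

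Tff2, the trefoil peptide of neck cells, stood at 31.4, 18.3, 164, 113 and 102 CPM in the tumours labelled deleted. In wild-type tumours it stood at 152, 107, 182, 118 and 146 CPM. Low values occurred in labelled-deleted tumours 1 and 2, and the other 3 of that group lay within or close to the wild-type range. Its log2 fold change was -0.72 (SE 0.50), and -0.16 without those 2 tumours. Tff3, the intestinal trefoil factor beside Tff2, was at 99.1 CPM in labelled-deleted tumour 2 and at 1.65 to 1.87 CPM in the other tumours labelled deleted, against 3.14 to 5.70 CPM in the wild-type tumours.

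The gastrokines, secreted proteins of the gastric mucosa with a BRICHOS domain, varied widely between tumours. Gkn1 stood at 14.0, 98.0, 38.01, 25.6 and 275 CPM in the tumours labelled deleted. Against this, wild-type levels were 615, 88.4, 495, 319 and 146 CPM. The groups overlapped through labelled-deleted tumours 2 and 5 and wild-type tumours 2 and 5. Gkn1 had a log2 fold change of -1.89 (SE 0.83), and of -2.92 when labelled-deleted tumour 5 was left out, so that tumour moved the value most.

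Gkn2, which in the human stomach pairs with TFF1 through a disulphide bond, stood at 3.74, 27.4, 14.2, 8.54 and 111 CPM in the tumours labelled deleted. Among wild-type tumours the levels were 467, 45.8, 389.9, 229 and 119.8 CPM. Tumours followed nearly the same order as for Gkn1, and 4 of 5 tumours labelled deleted lay below every wild-type tumour. The log2 fold change of -2.92 (SE 0.94) was the lowest of the 10 genes, and without labelled-deleted tumour 5 it was -4.21.

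Gkn3, a product of mouse neck cells, stood at 10.2, 105, 242, 101 and 249.6 CPM in the tumours labelled deleted. The wild-type levels were 325, 205, 333, 375 and 326 CPM, a narrow range beside that of Gkn1 or Gkn2. Labelled-deleted tumours 3 and 5 overlapped with wild-type tumour 2 and the other 3 were lower. The log2 fold change was -1.15 (SE 0.61).

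Anxa10, an annexin found mainly in gastric epithelium, stood at 4.72, 26.2, 16.1, 14.3 and 37.3 CPM in the tumours labelled deleted. Levels in wild-type tumours were 66.0, 15.1, 67.0, 39.8 and 17.3 CPM. The groups overlapped, and wild-type tumours 2 and 5 were among the low ones, as for Gkn1 and Gkn2. Its log2 fold change was -1.06 (SE 0.57).

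Ctse, an intracellular protease of surface mucous cells and of some immune cells, had the smallest range over the 10 tumours, with a highest level 3.70 times the lowest. It stood at 199, 366, 545, 608 and 512 CPM in the tumours labelled deleted, and at 496, 712, 738, 639.7 and 483 CPM in the wild-type tumours. The groups overlapped except for labelled-deleted tumours 1 and 2, and the log2 fold change was -0.46 (SE 0.27). Ctse had the highest CPM of the 10 genes in 9 of the 10 tumours. The exception was wild-type tumour 1, where Gkn1 led.

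Agr2, an endoplasmic reticulum protein needed for mucin folding in the mouse intestine, stood at 7.92, 104, 79.0, 51.1 and 87.4 CPM in the tumours labelled deleted. In the wild-type group it had 108, 64.3, 131, 90.2 and 90.4 CPM. Labelled-deleted tumours 1 and 4 lay below every wild-type tumour, the first far below, and the other 3 overlapped. The log2 fold change of -0.55 (SE 0.51) became -0.27 without labelled-deleted tumour 1.

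**Figure D1:**
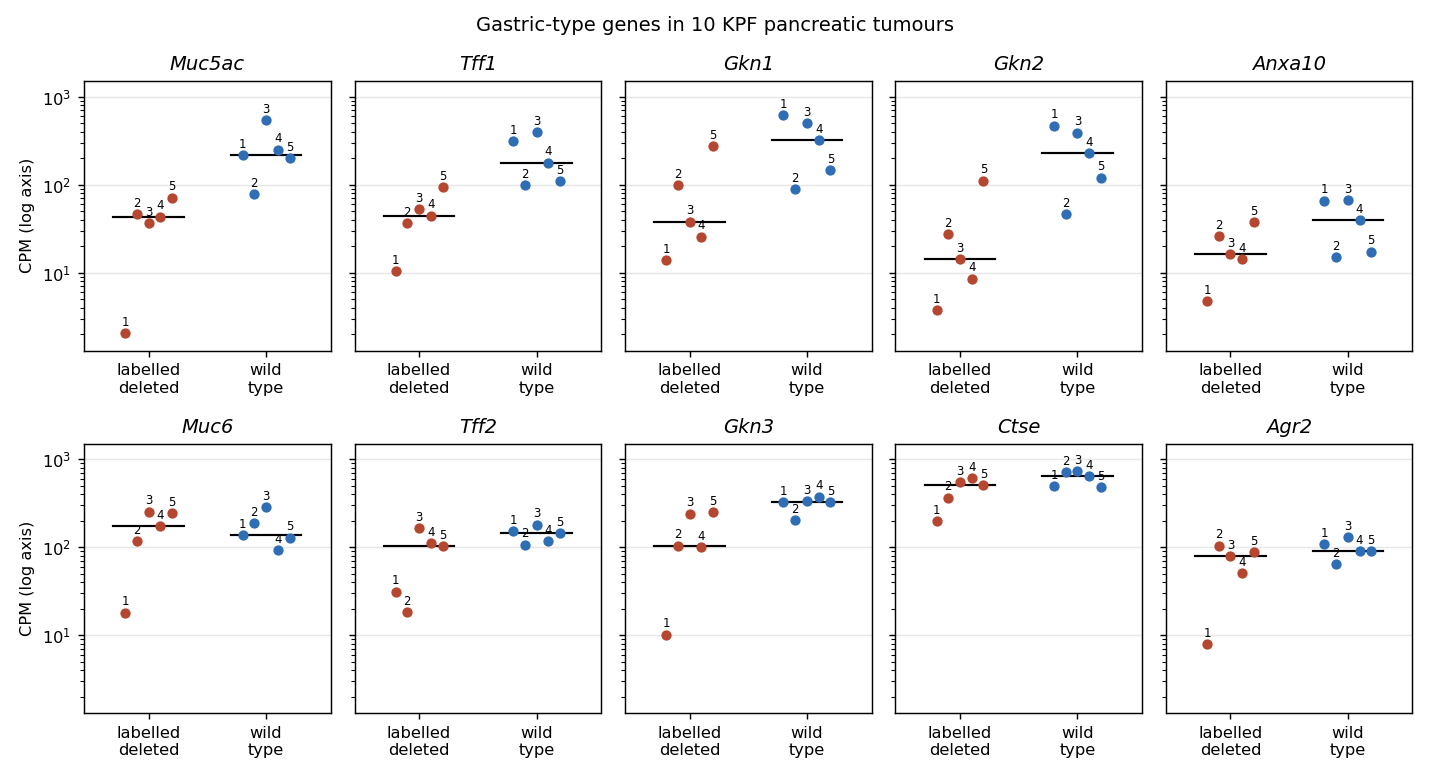
CPM on a log axis for each of the 10 genes in 5 tumours labelled deleted (left of each panel, red) and 5 wild-type tumours (right, blue); digits are tumour numbers and bars are medians. Muc5ac and Tff1 do not overlap between the groups, while Muc6 overlaps except for labelled-deleted tumour 1.

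Taking the 10 genes as a set, all 10 log2 fold changes were below 0, with a median of -1.10, and 6 were below -1. Of all tested genes, 44.9% were below 0 and 0.797% below -1, with a median of 0.03. All 5 tumours labelled deleted lay below all 5 wild-type tumours in 2 of the 10 genes, and in 0.435% of all tested genes. As these genes were chosen with the comparison in view, nothing is read from these shares. Without labelled-deleted tumour 1, 9 of 10 were below 0 and the median was -0.83. Without labelled-deleted tumours 1 and 2 the median was -0.77, with Muc6 again the exception at 0.42. Summed over the 10 genes, the tumours labelled deleted held 1132 ± 559 CPM and the wild-type tumours 2429.8 ± 808 CPM (SD, n = 5 each). The 4 surface-cell genes Muc5ac, Tff1, Gkn1 and Gkn2 summed to 30.2, 208, 141, 122 and 551 CPM in the tumours labelled deleted and to 1611, 311, 1813, 975 and 574 CPM in the wild-type tumours. The 3 neck-cell genes Muc6, Tff2 and Gkn3 summed to 59.8, 241, 661, 388 and 597 CPM in the tumours labelled deleted and to 615, 502, 803, 587 and 601 CPM in the wild-type tumours. Both sums overlapped between the groups, the first through labelled-deleted tumour 5 and wild-type tumour 2, the second through labelled-deleted tumours 3 and 5.

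In RNA pooled from many cells, whether bulk tissue or sorted, fewer gastric-type cells and less RNA per cell cannot be told apart. The amount of epithelial RNA tended to be lower in the tumours labelled deleted, and the groups overlapped only through labelled-deleted tumour 5. In labelled-deleted tumours 1 to 5, 12 epithelial genes summed to 1893, 4773, 3600, 3886 and 5339 CPM. Wild-type sums were 4913 to 6187 CPM. Of the 12, 11 had a log2 fold change below 0, with a median of -0.41. Without labelled-deleted tumour 1, 9 were below 0 and 3 above, with a median of -0.21. Without labelled-deleted tumours 1 and 2, 12 of 12 were below 0, with a median of -0.29. With the mean level of these epithelial genes as a covariate, the log2 fold change of Muc5ac was -1.93, that of Tff1 -1.77, that of Gkn1 -1.52 and that of Gkn2 -2.55. In that fit Agr2 was at 0.03, Ctse at -0.15, Gkn3 at -0.39 and Muc6 at 0.55. The median over the 10 genes was -0.57. The covariate was measured in the same libraries, and its own part in the result was not tested further.

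**Figure D2:**
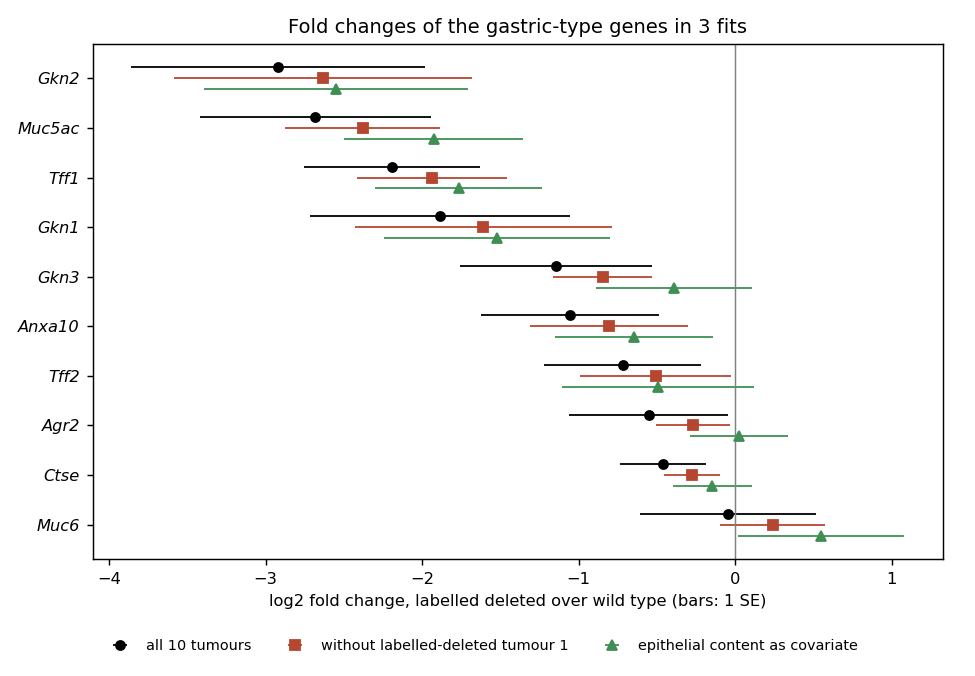
Log2 fold change of tumours labelled deleted over wild-type tumours for each of the 10 genes, with bars of 1 SE, in the fit to all 10 tumours, without labelled-deleted tumour 1, and with epithelial content as a covariate. The 4 surface-cell genes stay between -1.52 and -2.92 in all 3 fits, while Muc6 lies on both sides of 0.

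Per length, the order of the 10 genes differed from that by CPM. Levels per kilobase use the summed length of annotated exons. In the wild-type tumours Gkn3 led with 365 ± 74.4 CPM per kilobase, followed by Gkn2 with 317 ± 225, Tff1 with 309.6 ± 183, Gkn1 with 266 ± 179, Tff2 with 241 ± 50.2 and Ctse with 194 ± 37.5 (SD, n = 5 each). Neighbours in this order did not differ beyond their spread. Agr2 followed with 74.996 ± 19.2 CPM per kilobase, and Muc5ac, Muc6 and Anxa10 lay lowest, at 23.8 ± 15.8, 17.9 ± 8.10 and 17.9 ± 10.97. In the tumours labelled deleted Gkn3 had 165 ± 120 CPM per kilobase, Tff2 147 ± 103, Ctse 141 ± 51.7, Gkn1 72.0 ± 86.5, Tff1 67.7 ± 43.1, Agr2 51.1 ± 29.2 and Gkn2 41.9 ± 56.6. Muc6 had 17.3 ± 10.5, Anxa10 8.61 ± 5.43 and Muc5ac 3.71 ± 2.32 CPM per kilobase. Muc5ac was the lowest of the 10 genes per length in all 5 tumours labelled deleted and in 0 of 5 wild-type tumours.

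Across tumours Muc5ac, Tff1, Gkn1 and Gkn2 varied together, and Anxa10 varied with them. The 6 pairs among Muc5ac, Tff1, Gkn1 and Gkn2 had a Pearson's r of log2 CPM between 0.86 and 0.99 over the 10 tumours. After each group was centred on its own mean, which removes the difference between the groups, they lay between 0.74 and 0.99. Pairs of Anxa10 with these genes lay between 0.86 and 0.94 over the 10 tumours, and between 0.85 and 0.94 after centring. Without labelled-deleted tumour 1 they lay between 0.72 and 0.91, against 0.83 to 0.98 among Muc5ac, Tff1, Gkn1 and Gkn2. Muc5ac also had r = 0.92 with Gkn3 and r = 0.89 with Agr2 over the 10 tumours, and 0.76 and 0.66 without that tumour. The closest pair was Gkn1 and Gkn2, with r = 0.99 and Spearman's rho = 0.98, and r = 0.97 without the 2 tumours farthest from the median of Gkn1. These genes are neighbours, and all values share the same libraries and scaling. The correlations are descriptions, for which no p was computed.

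Ctse, which surface mucous cells also make, followed Muc5ac, Tff1, Gkn1 and Gkn2 less closely. Its r with them lay between 0.52 and 0.81 over all tumours, and without labelled-deleted tumour 1 it was 0.08 with Gkn1, 0.18 with Gkn2, 0.39 with Muc5ac and 0.47 with Tff1.

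The neck-cell genes did not form such a group once labelled-deleted tumour 1 was set aside. Over all 10 tumours, Muc6 had r between 0.46 and 0.85 with the other 9 genes, and without labelled-deleted tumour 1 between -0.13 and 0.40. Its 4 pairs with the surface-cell genes lay between -0.13 and 0.07 in those 9 tumours. Tff2 had r = 0.68 with Gkn3, r = 0.68 with Ctse and r = 0.40 with Muc6 there. Gkn3, although a neck-cell product in the stomach, had r = 0.81 with Tff1 and r = 0.80 with Gkn2 in the same 9 tumours, against 0.03 with Muc6. These 9-tumour values were not centred and hold the difference between the groups. With each group centred over all 10 tumours the order was reversed. Gkn3 then had r = 0.88 with Muc6, 0.81 with Tff1 and 0.68 with Gkn2, and Muc6 had r between 0.48 and 0.90 with the other 9 genes. Agr2 and Anxa10 were closer to the gastrokine Gkn1, at 0.79 and 0.91, than to Tff2, at -0.05 and 0.14.

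**Figure D3:**
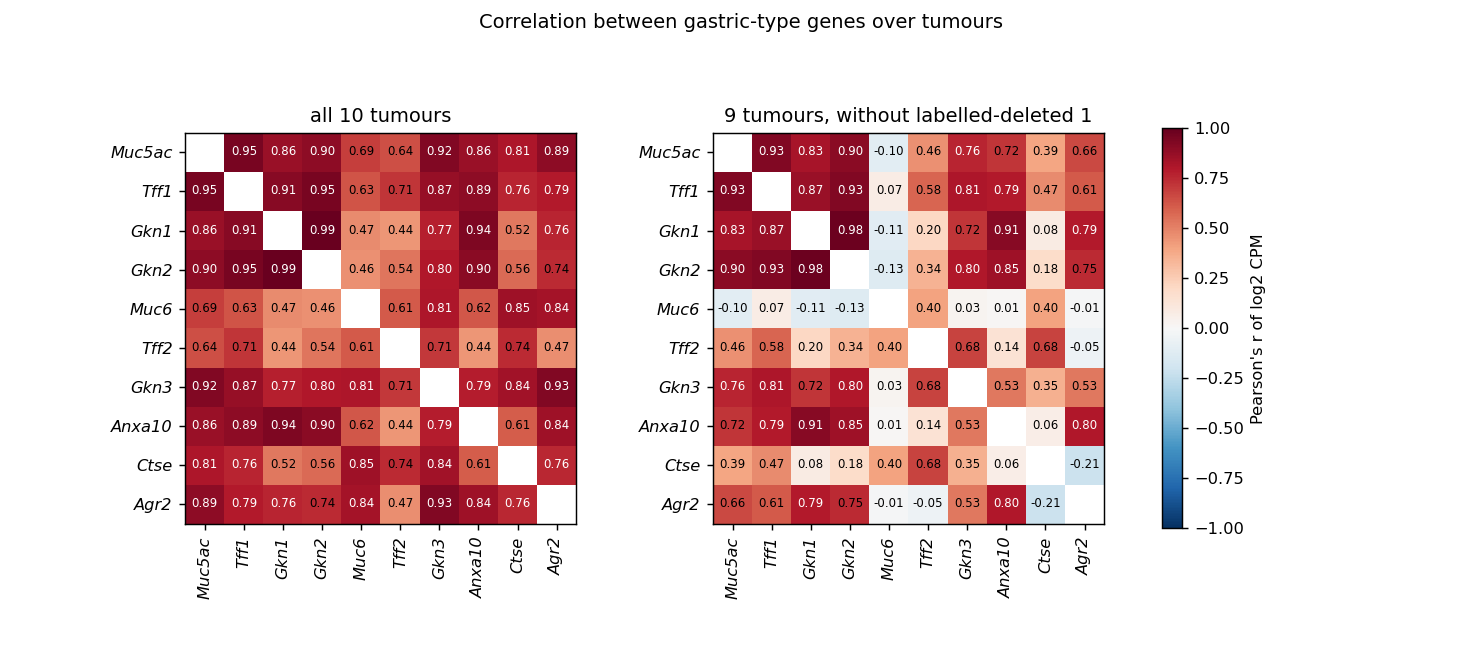
Pearson's r of log2 CPM for each pair of the 10 genes over all 10 tumours (left) and over the 9 tumours without labelled-deleted tumour 1 (right); colour and printed value give r. Pairs among Muc5ac, Tff1, Gkn1 and Gkn2 stay at 0.83 or above in both panels, whereas pairs of Muc6 fall to between -0.13 and 0.40 on the right.

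Of 9 other genes of gastric mucous cells that were tested, 6 had a log2 fold change below 0 and 3 above, with a median of -0.63, and 0 passed the test over all genes (edgeR adjusted p of 0.759 at the lowest, background 0%). Psca, a surface antigen of gastric and pancreatic tumour epithelium, stood at 0.44, 0.78, 0.57, 0.91 and 5.13 CPM in the tumours labelled deleted and at 16.6, 4.10, 27.1, 9.22 and 2.12 CPM in the wild-type tumours. Its log2 fold change was -2.89 (SE 0.86), and only labelled-deleted tumour 5 overlapped with the wild-type range. Vsig1, a junctional adhesion protein of gastric epithelium, stood at 6.05, 12.8, 13.5, 11.48 and 22.6 CPM in the tumours labelled deleted and at 26.1, 26.9, 32.2, 19.8 and 27.2 CPM in the wild-type tumours, a log2 fold change of -0.99 (SE 0.29). Psca and Vsig1 were named for the smallest unadjusted p of the list. The 3 genes above 0 were Aqp5 at 0.05, Lgals4 at 0.64 and Tm4sf5 at 2.01. Also below 0 were Cldn18 at -0.04, Tspan8 at -0.63, Sult1c2 at -0.70 and Mucl3 at -1.81. Tm4sf5 stood at 144 CPM in labelled-deleted tumour 2 and at no more than 15.4 CPM elsewhere. With the tumour that held intestinal transcripts, labelled-deleted tumour 2, left out, 9 of 9 genes of this list were below 0. Without labelled-deleted tumour 1, 5 were below 0 and 4 above, with a median of -0.42, and without both tumours 7 were below 0 and 2 above.

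Among products of the other cells of the stomach, some were at or near 0 and others were present at low levels. The proton pump subunit Atp4b of parietal cells had 0 counts in all 10 libraries. This allows at most 0.302 CPM in any library (3 counts per library, counting error only). The other subunit of the pump, Atp4a, was found in every tumour at a low level. It stood at 0.18 to 1.31 CPM in the tumours labelled deleted and 0.47 to 1.40 CPM in the wild-type tumours. The intrinsic factor gene Cblif reached no more than 0.81 CPM, and the pepsinogen gene Pga5 of chief cells was at 0 in all 5 tumours labelled deleted and at no more than 0.81 CPM in the wild-type tumours. Over 11 genes of chief, parietal and endocrine cells found in the table, the sum was 5.78 to 48.1 CPM in the tumours labelled deleted and 8.91 to 19.3 CPM in the wild-type tumours, far under the sum of the 10 genes in each group. Of these 5 were tested, 4 were above 0 and 1 below, and 0 passed. Progastricsin (Pgc), an enzyme of neck, chief and pyloric gland cells, was found in every tumour, at 1.07 to 12.97 CPM in the tumours labelled deleted and 0.79 to 6.38 CPM in the wild-type tumours, a log2 fold change of 0.92 (SE 0.72). The ghrelin gene Ghrl stood at 0.53 to 10.8 CPM in the tumours labelled deleted and 0.39 to 3.96 CPM in the wild-type tumours, a log2 fold change of 1.37 (SE 0.82). Hdc, which makes histamine in endocrine cells of the stomach and in mast cells, stood at 3.38 to 18.3 CPM in the tumours labelled deleted and 0.82 to 9.67 CPM in the wild-type tumours.

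Other mucins and Tff3 went both ways, with 4 of 7 tested genes below 0, 3 above and 0 past the test. Muc1, the membrane mucin of ductal epithelium, stood at 60.1, 120.1, 208, 187 and 193 CPM in the tumours labelled deleted and at 187.5, 252, 314, 218 and 314 CPM in the wild-type tumours, a log2 fold change of -0.74 (SE 0.31). Muc16, another membrane mucin, stood at 0.80 to 4.93 CPM in the tumours labelled deleted and 0.81 to 1.42 CPM in the wild-type tumours. Several goblet-cell genes were high in labelled-deleted tumour 2. Fcgbp, a mucus protein that binds trefoil peptides in humans, was at 877 CPM there and at 2.88 to 12.5 CPM in the other tumours labelled deleted, against 0.71 to 7.99 CPM in the wild-type tumours. Spink4, a secreted product of goblet cells, was at 56.3 CPM in that tumour and at no more than 2.201 CPM in any other. Other genes of the list were high elsewhere too. Clca1 was at 90.5 CPM in labelled-deleted tumour 2, against 66.8 and 68.2 CPM in wild-type tumours 1 and 3. Zg16, a lectin that also marks acinar cells, was at 191 and 137 CPM in labelled-deleted tumours 2 and 5 and at 294 CPM in wild-type tumour 5. The median of the 5 tested goblet-cell genes was 2.37, and -0.68 without that tumour.

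Of 18 tested genes that fold, glycosylate or secrete mucins, 13 were below 0 and 5 above, with a median of -0.39, and 0 passed. The glycosyltransferases with the smallest p were Galnt7, which starts O-linked sugar chains, at -0.37 (SE 0.14), and Fut2, which adds the terminal fucose of secretor antigens, at -0.65 (SE 0.28). Without labelled-deleted tumour 1 the median of this list was -0.18. Transcription factors of foregut and gut had 10 of 16 below 0, with a median of -0.21, and 0 passed. Foxa2, a forkhead factor of endoderm, was at -0.56 (SE 0.30). Hnf4g, a nuclear receptor of intestinal epithelium, was at 2.84 through 48.9 CPM in labelled-deleted tumour 2, with at most 2.32 CPM elsewhere. Without labelled-deleted tumour 1 the list had 7 genes below 0 and 9 above, with a median of 0.01.

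**Figure D4:**
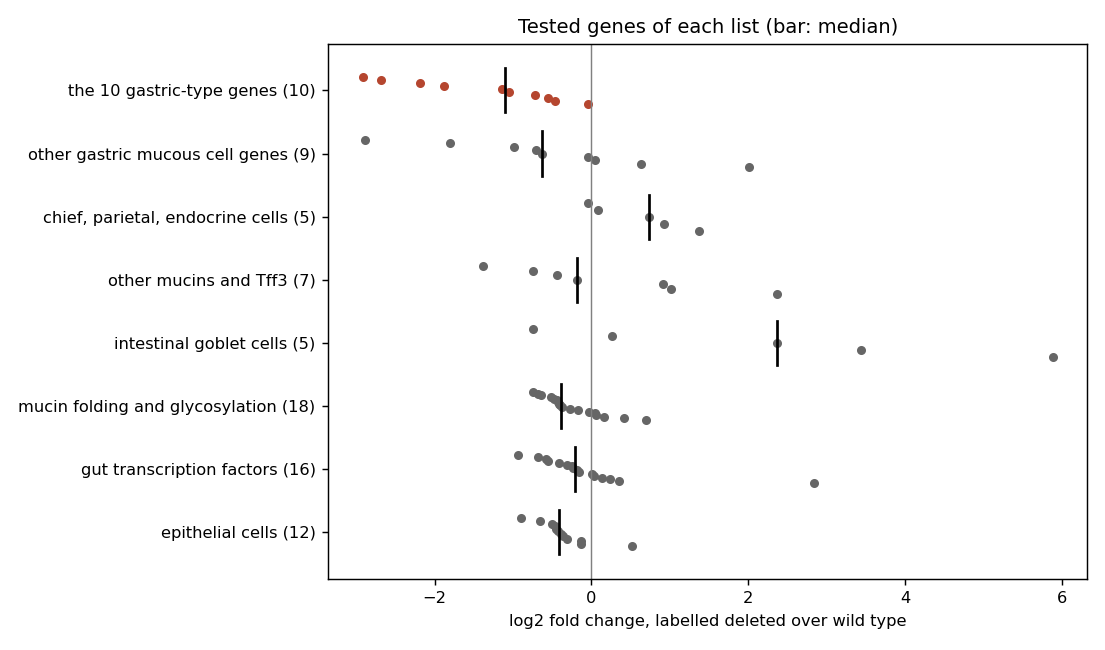
Log2 fold change of tumours labelled deleted over wild-type tumours for the tested genes of each list (points) with the list's median (bar); the number of tested genes is in brackets. The 10 gastric-type genes, chosen with this comparison in view, have a median of -1.10, and the other lists lie between -0.63 and 2.37.

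Markers of other cells in the tumours differed in direction. The 12 acinar genes summed to 283 to 17664 CPM in the tumours labelled deleted and to 29.6 to 20265 CPM in the wild-type tumours. Wild-type tumours 1 and 5 had the lowest and the highest acinar sum, and their summed levels of the 10 genes were 2896 and 1766 CPM. The 6 macrophage genes, which matter for Ctse because some immune cells make it, summed to 1148 to 3717 CPM in the tumours labelled deleted and to 2554 to 4486 CPM in the wild-type tumours, with 6 of 6 below 0. The 4 B-cell genes summed to 1.33 to 215 CPM in the tumours labelled deleted and to 1.42 to 75.1 CPM in the wild-type tumours. The 6 fibroblast genes had 3 below 0 and 3 above, with sums of 7953 to 27385 CPM in the tumours labelled deleted and 14499 to 27118 CPM in the wild-type tumours. All 5 red-blood-cell genes were below 0, with a median of -0.18. Their sums were 44.9 to 569.9 CPM in the tumours labelled deleted and 176 to 405 CPM in the wild-type tumours. Without labelled-deleted tumour 1, 4 of the 5 were above 0, with a median of 0.10, so the direction rested on that tumour. The part of these cells in the levels of the 10 genes was not tested.

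The tested genes most like the mean profile of the 10 genes over the 10 tumours were led by Gm15318, with r = 0.99. This is the antisense gene whose exons overlap Tff1, and it stood at 0.44, 3.05, 5.58, 3.63 and 9.20 CPM in the tumours labelled deleted and at 24.4, 9.20, 27.8, 14.4 and 7.36 CPM in the wild-type tumours. Next came Lypd1, the sialyltransferase gene St8sia6, the ubiquitin-conjugating enzyme gene Ube2w, Amz1, the copper chaperone gene Atox1, Fxyd3, which regulates the sodium pump, and Paqr8, with r between 0.96 and 0.97. In the 9 tumours without labelled-deleted tumour 1, Gm15318 had r = 0.97 and the other 7 lay between 0.85 and 0.91.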

How the data were processed

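The authors deposited estimated counts per gene for all 10 tumours and, per tumour, normalized values on a log2 scale whose transformation is not named. The submitters' processing notes name mm10 and list RSEM 1.3.3, HISAT2 2.2.1, DESeq2 1.32.0, FastQC 0.11.9 and bcl2fastq 2.0. All 100 values of the 10 genes were whole, against 92.0% of the table. Groups came from the sample titles. The count column of labelled-deleted tumour 1 lacks the ID number given in its title. It was matched by the ending of its name, which occurs in no other title, and by the header of that tumour's log2 values.

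Estimated counts were rounded, filtered with filterByExpr of edgeR 4.0.16 (minimum count 10), scaled by TMM and compared with the quasi-likelihood F test (robust), with Benjamini-Hochberg adjustment over 16565 genes at 0.05. Standard errors came from the F statistic. Log2 CPM used a prior count of 2. Other software was Python 3.11.15 with matplotlib 3.10.9, and R 4.3.3 with DESeq2 1.42.0 and limma 3.58.1. The steps were tested on simulated data. P-values weigh the difference between the groups against the spread between these samples. The standard errors include that spread, and floors cover counting error only.

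The 10 genes and the companion lists were chosen with earlier results of these data known. Beside the 10 genes, the named genes are at most 2 per companion list, by smallest unadjusted p, and 8 by likeness. The cluster neighbours, Grem1 and Epcam are also named. Muc2, Atp4b, Cblif and Pga5 stand as defining markers of their cells. Hdc, Zg16, Clca1, Atp4a and the further tested genes of gastric mucous cells were named after their values were seen. Likeness was Pearson's r of log2 CPM with the mean standardised profile of the 10 genes. Alternatives were other tools, scalings, filters, blocks, an epithelial covariate, the deposited log2 values with limma, and leaving out tumours.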

Additional observations from a re-analysis of the deposited data

Results flagged for a closer look

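In 54 groups of 5 tumours, formed by 27 named genes in each group, 9 had 1 tumour whose gap to the nearest other exceeded 0.71 of the group's range. Chance flags about 1 in 20 groups, and genes of one list are not independent. Of the 10 gastric-type genes, Gkn2 was flagged, with 111 CPM in labelled-deleted tumour 5 against 3.74 to 27.4 CPM in the others of its group. Psca stood apart in the same tumour, at 5.13 CPM against 0.44 to 0.91 CPM in the others of its group.

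Labelled-deleted tumour 2 was flagged for 5 genes: Muc2 at 133 CPM, Tff3 at 99.1 CPM, Fcgbp at 877 CPM, Spink4 at 56.3 CPM and the nuclear receptor gene Hnf4g at 48.9 CPM. Muc16 was flagged in both groups, with 4.93 CPM in labelled-deleted tumour 3 and 1.42 CPM in wild-type tumour 1.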

How the results depend on the processing

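The number of genes past an adjusted p of 0.05 was 0 in all alternatives but DESeq2, which called 7 genes, 5 of them lower in the tumours labelled deleted and 0 of them among the 10 gastric-type genes; the cause was not tested. DESeq2 was fitted to 31660 genes, without the low-count filter, and had 1509 genes at an unadjusted p under 0.05. The main edgeR fit had 983 of 16565 genes, and edgeR without the filter had 1563 of 31660. The median log2 fold change of the 10 genes was -1.10 and stayed below 0 in every alternative. It lay between -1.44 and -0.83 when each tumour was left out in turn, the extremes being without labelled-deleted tumour 5 and without labelled-deleted tumour 1. It was -0.57 with the epithelial covariate and -1.41 with limma-voom. Muc6 turned positive without labelled-deleted tumour 1, 2 or both, without wild-type tumour 3, with the tumour ID number as a block and with the epithelial covariate (0.55), where Agr2 also did (0.03).

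Replicate numbers are shared between the groups, but the labels do not say that they pair tumours. Same-numbered tumours had correlations of deviations from -0.02 to 0.39, and they were not taken as pairs. Labelled-deleted tumours 3 and 5 correlated best with the same-numbered wild-type tumour, and labelled-deleted tumour 2 with wild-type tumour 1. In each of these matches both tumours carry the same number in the tumour ID. Labelled-deleted tumours 1 and 4, whose ID numbers no wild-type tumour carries, correlated best with wild-type tumour 2. With the replicate block 0 genes passed and the median was -1.31. With the number in the tumour ID as a block the median was -0.71. In that fit labelled-deleted tumours 1 and 4, each alone in its ID number, added nothing to the difference between the groups.

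Depth bears most on Muc5ac in labelled-deleted tumour 1, whose 23 counts were the fewest of any of the 10 genes in any library.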
